A study of Mus musculus with 24 samples.

Results

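The mitochondrial carriers of the Slc25 family were described in mouse macrophages in which Ctbp1 or Ctbp2, genes of transcriptional co-repressors, had been targeted. Members were the genes whose symbol is Slc25a followed by a number, plus Ucp2, taken once per gene identifier. The family was chosen by a measured value: Slc25a5 was lower with Ctbp1 siRNA both at rest and under lipopolysaccharide (LPS). There were 48 such genes, 44 of them in the table of bone marrow-derived macrophages (BMDMs, 22996 genes) and 48 in that of the J774.1 line (54380 genes). Of these, 35 had a mean of at least 1 TPM (a length-corrected share of each transcript in a library's RNA) in each of 8 groups and are reported. Another 9 were in both tables but fell under 1 TPM in a group, and 4 were in the J774.1 table alone, where they are listed at 0. Just inside the limit was Slc25a53, with a lowest group mean of 1.92 TPM, and just outside were Slc25a47 and Slc25a42, both at 0.49 TPM.

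BMDMs were grown from male C57BL6/N mice of 6 to 12 weeks for 6 days in medium with supernatant of L929 cells. They received control, Ctbp1 or Ctbp2 siRNA, a short duplex that lowers its target's mRNA, and then PBS vehicle or 100 ng/ml LPS, a bacterial cell wall component, for 4 h. J774.1, a macrophage line from a female BALB/c mouse, was used unedited (wildtype) and as what its labels call a double knockout of both genes. Both J774.1 groups received the same LPS dose for the same time, and no vehicle group of this line was analysed here. Each of the 8 groups had 3 libraries of polyadenylated RNA. The labels do not state the siRNA sequences, how long siRNA acted, or whether the knockout is 1 clone. They call the replicates biological without naming separate animals or cultures, so p-values measure the spread between these libraries.

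Slc25 proteins sit mostly in the inner mitochondrial membrane and carry nucleotides, phosphate, carboxylates, amino acids, cofactors, glutathione and iron between the cytosol and the matrix. The ADP/ATP carriers exchange matrix ATP for cytosolic ADP, and the phosphate carrier supplies the phosphate from which ATP is made. In macrophages LPS is known to move metabolism towards glycolysis and to turn citrate and succinate, substrates of these carriers, into signals and building blocks. Ucp2 encodes an uncoupling protein that is abundant in myeloid cells.

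The targeted genes were checked first. Ctbp1 was at 130 to 143 TPM in vehicle controls and 55.5 to 59.4 TPM with Ctbp1 siRNA, and at 117 to 131 and 48.1 to 56.0 TPM in LPS. Ctbp2 was at 51.6 to 54.2 TPM in vehicle controls and 16.9 to 20.4 TPM with Ctbp2 siRNA, and at 36.9 to 40.3 and 10.4 to 13.8 TPM in LPS. In the double knockout Ctbp1 was at 12.4% of its wildtype mean, but Ctbp2 was at 80.7%, 61.5 to 64.1 TPM against 74.4 to 81.4 TPM. TPM over a whole gene does not show whether a transcript still encodes protein, so the Ctbp2 label is not checked by this value. TPM also keeps no library depth, so counting error is unknown. All 8 macrophage markers exceeded 1 TPM in every BMDM group and 7 of 8 in J774.1, where Mertk was at or near 0. Of 9 neutrophil markers, summed at 78.1 to 207 TPM over BMDM libraries, 5 reached 1 TPM, while Ly6g and Elane were at 0 in several groups. In J774.1 their sum was 0.474 to 0.92 TPM in wildtype and 3.67 to 5.00 TPM in knockout libraries. Markers of dendritic cells, lymphocytes, stromal cells and mast cells summed to at most 7.60 TPM in any library. Single BMDM libraries weighed on the siRNA tests, among them control siRNA in LPS with number 4. Without it the genes that passed went from 7 to 83 for Ctbp1 and from 236 to 145 for Ctbp2 siRNA in LPS, and from 13 to 38 and from 69 to 105 in vehicle, where it enters only the estimate of spread. For the tests of whether the siRNA effects differ between LPS and vehicle, 0 became 4 for Ctbp1 and 4 became 13 for Ctbp2. Other libraries weighed on them too. Without control vehicle library 3 the genes for Ctbp2 siRNA in vehicle went from 69 to 4. Without Ctbp2 siRNA LPS library 3 those for Ctbp2 siRNA in LPS went from 236 to 66.

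A few carriers made up most of the family's transcripts. In vehicle controls the 44 members with BMDM values summed to 3021 ± 21.3 TPM (SD, n = 3). Of this sum Ucp2, Slc25a3, Slc25a5 and Slc25a4 together held 68.0% ± 0.265. Totals and shares of the family, here and below, count every member with values, also those under 1 TPM. Ucp2 stood at 1137, 1144 and 1102 TPM in these libraries. Slc25a3, the phosphate carrier, stood at 451, 454 and 473 TPM. Slc25a5, which encodes the ADP/ATP carrier of dividing and many other tissues (ANT2), was at 348, 346 and 328 TPM. Slc25a4, its heart and muscle counterpart (ANT1), was at 126, 129 and 128 TPM, close to Slc25a39, a glutathione carrier, at 124 to 136 TPM. At the other end Slc25a33, a pyrimidine nucleotide carrier, averaged 2.62 ± 0.225 TPM and Slc25a53 3.19 ± 0.845 TPM.

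The order differed in the J774.1 table, which was processed separately, so no level was tested across tables. There Slc25a5 led, at 1206, 1205 and 1240 TPM in wildtype cells, above Ucp2 at 705, 743 and 740 TPM and Slc25a3 at 567, 587 and 581 TPM. Slc25a5 held 34.3% ± 0.407 of the family's TPM in wildtype J774.1 cells and 12.0% ± 0.348 in LPS-treated control BMDMs. For each TPM of Slc25a4 there were 8.85 ± 0.12 of Slc25a5 in wildtype J774.1 cells and 2.43 ± 0.0866 in LPS-treated control BMDMs.

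**Figure D1:**
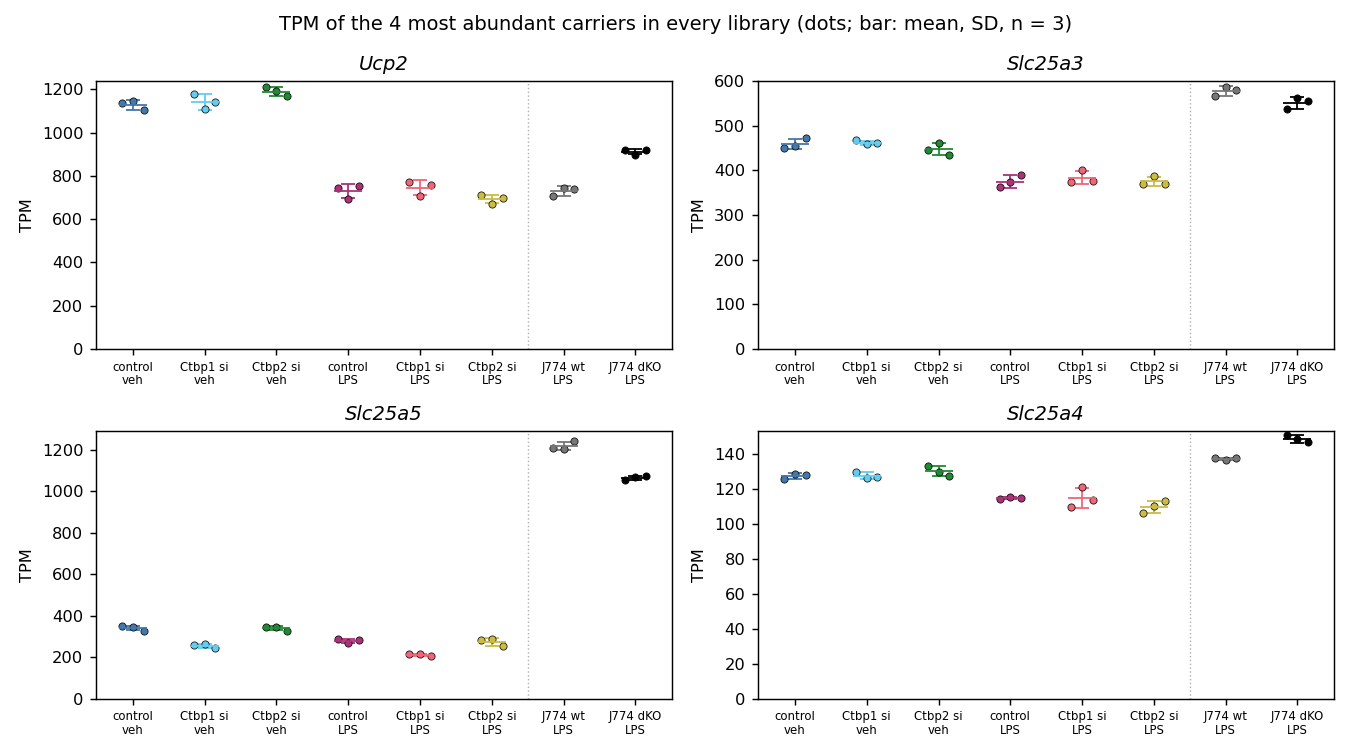
TPM of Ucp2, Slc25a3, Slc25a5 and Slc25a4 in each of 24 libraries by group (dots, with mean and SD, n = 3; veh, vehicle; si, siRNA; wt, wildtype; dKO, double knockout); the dotted line separates the 2 tables. Slc25a5 lies at 243 to 263 TPM with Ctbp1 siRNA in vehicle against 328 to 348 TPM in controls, while the other panels show overlapping values there.

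Slc25a5 is the carrier through which the family was picked, so its values with Ctbp1 siRNA are a description without a test. In vehicle it measured 348, 346 and 328 TPM in control libraries and 256, 263 and 243 TPM with Ctbp1 siRNA. In LPS it measured 287, 269 and 281 TPM in control libraries and 213, 215 and 204 TPM with Ctbp1 siRNA. The groups did not overlap in either condition, and all 6 Ctbp1 siRNA libraries lay under their controls. On the log2(TPM + 1) scale the difference was −0.42 ± 0.048 (SE) in vehicle and −0.41 ± 0.048 in LPS, which is 74.5% and 75.4% of the control mean. In the authors' deposited table the log2 fold changes are −0.40 and −0.42. Its share of the family's TPM was 11.3% ± 0.299 in vehicle controls and 8.63% ± 0.344 with Ctbp1 siRNA, and there were 2.67 ± 0.104 and 1.99 ± 0.0862 TPM of it for each TPM of Slc25a4. With Ctbp2 siRNA Slc25a5 did not pass the test, at 347, 347 and 328 TPM in vehicle (log2 fold change −0.00, 95% interval −0.10 to 0.10) and 281, 287 and 253 TPM in LPS (−0.03, −0.13 to 0.07). ADP/ATP carrier genes have processed copies, and how reads were shared between copies is uncertain. The annotated pseudogene Slc25a5-ps was at 0.305 TPM or less in every library.

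The promoter window of Slc25a5 is printed because this gene leads the account: 250 bases before its RefSeq start, at chrX:36795347-36795596 on the plus strand of GRCm38.p6, 5′ to 3′, with the match to a GC box (GGGCGG on either strand) in capitals.
Slc25a5: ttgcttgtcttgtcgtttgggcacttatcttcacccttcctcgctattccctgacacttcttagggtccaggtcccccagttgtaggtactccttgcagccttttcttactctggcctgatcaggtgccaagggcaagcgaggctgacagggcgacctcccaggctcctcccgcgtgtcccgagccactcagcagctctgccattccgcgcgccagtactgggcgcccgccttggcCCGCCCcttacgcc
The match lies next to the start site. A window was used for 28 of the 35 carriers. Any carrier window on a single chromosome was left out of the search, while all windows include that chromosome. For 28 of the 37 carrier windows, the bases just after the start were found in the first part of an annotated transcript of the gene. A GC box occurs in 75.7% of the carriers' windows (21 carriers) and in 32.7% of all 32851 windows. CCAAT occurs in 43.2% of the carriers' windows (13 carriers) and in 33.8% of all. No window of a carrier holds TATAAA, found in 12.4% of all windows, or CGCATGCG, found in 1.55%. The carriers had passed the limit of 1 TPM, while all windows were taken without regard to expression, so the 2 sets are unlike. Whether expression accounts for the differing shares was not tested. These matches describe the letters and no binding was measured.

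The question whether other carriers follow Slc25a5 with Ctbp1 siRNA was tested over the other 34. None passed the test in vehicle or in LPS with all libraries (limma, Benjamini-Hochberg adjusted p under 0.05 over 12146 genes). Few genes passed at all: 13 of 12146 in vehicle (0.107%) and 7 in LPS (0.0576%), so 0 of 34 is near this background. In vehicle 16 of the 34 estimates were below 0 and 18 above, with a median log2 difference of 0.003, and the median of all genes was −0.01. In LPS 12 were below and 22 above, with a median of 0.03, against 0.01 for all genes. At an unadjusted p under 0.05 there was 1 of 34 carriers in vehicle, where 8.92% of all genes were, and there were 2 in LPS, where 7.34% of genes were. The 95% intervals of 32 carriers in vehicle and 33 in LPS lay wholly above the value of Slc25a5. Slc25a40 in vehicle and Slc25a43 in LPS were among those whose intervals reach it. The value of Slc25a5 picked the family and is taken here without its own SE, so these interval counts are a description. Without control LPS library 4, when 83 genes passed in LPS, 1 of the 34 did, with an estimate above 0. Across the tested genes, 1 was higher and 12 were lower in vehicle, and 10 and 9 after median-of-ratios scaling, which sets library levels by the typical gene. No other carrier passed after that scaling either. In bulk RNA, fewer cells of a type and less RNA per cell cannot be told apart. The summed macrophage markers were at 12458 to 13043 TPM with Ctbp1 siRNA and 13828 to 14391 TPM in controls in vehicle, and at 12501 to 14578 and 15135 to 15783 TPM in LPS, and their part in the result was not tested.

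**Figure D2:**
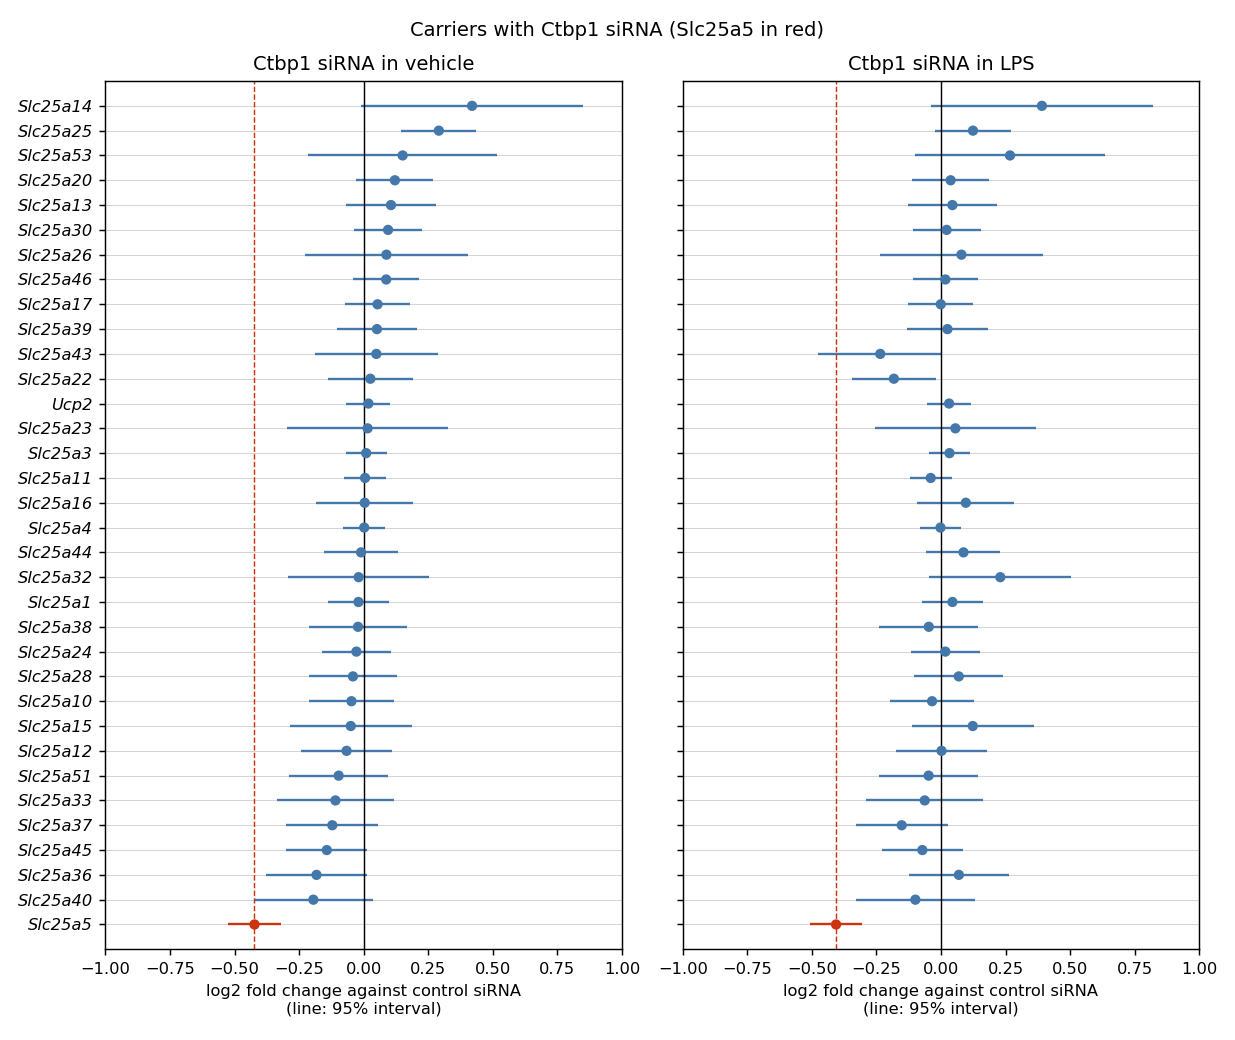
Log2 fold change of 34 of the 35 carriers with Ctbp1 siRNA against control siRNA in vehicle (left) and LPS (right), with 95% intervals (lines); the dashed line marks Slc25a5, in red. Slc25a5 sits at −0.42 and −0.41, and no other carrier passed the test in either condition with all libraries.

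By role, the carriers closest to Slc25a5 in function and abundance lay near 0. Slc25a4 was at 130, 126 and 127 TPM with Ctbp1 siRNA in vehicle and 126 to 129 TPM in controls, and its log2 difference was 0.002 (95% interval −0.08 to 0.08). In LPS it was −0.002 (−0.08 to 0.08). Slc25a3 was 0.01 (−0.07 to 0.09) in vehicle and 0.03 (−0.05 to 0.11) in LPS, and Ucp2 was 0.02 (−0.07 to 0.10) and 0.03 (−0.05 to 0.12). These abundant carriers have narrow intervals that leave out a change of the size of Slc25a5. Among carboxylate carriers, Slc25a1 (citrate), Slc25a10 (dicarboxylates) and Slc25a11 (oxoglutarate and malate) were between −0.05 and 0.04 in both conditions. For low carriers the intervals were wide, up to 0.43 to either side for Slc25a14, a relative of the uncoupling proteins.

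The carrier nearest to passing with Ctbp1 siRNA was Slc25a25, a calcium-regulated carrier of ATP-Mg and phosphate. It was at 14.8, 12.5 and 13.2 TPM in vehicle controls and 17.7, 16.3 and 16.2 TPM with Ctbp1 siRNA, without overlap. Its log2 difference was 0.29 ± 0.069 (limma adjusted p = 0.151), and in the authors' deposited table it is 0.33 with an adjusted p of 0.0291. In LPS it was 0.12, with 26.0 to 27.6 TPM in controls and 27.3 to 30.7 TPM with Ctbp1 siRNA, which overlap.

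With Ctbp2 siRNA, which shares its control libraries with Ctbp1 siRNA, 0 of 35 carriers passed in vehicle. Among all genes 69 of 12146 did (0.568%), so 0 of 35 is near this background. At an unadjusted p under 0.05 there were 4 of 35 carriers and 11.5% of all genes, and the authors' deposited table has none past an adjusted p of 0.05. The lowest estimate was Slc25a40, a low glutathione carrier, at 7.93, 7.59 and 8.58 TPM in controls and 6.22, 6.82 and 5.79 TPM with Ctbp2 siRNA (−0.31 ± 0.109, limma adjusted p = 0.243). Genes that passed split into 33 higher and 36 lower, or 66 and 18 after median-of-ratios scaling.

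In LPS 1 of 35 carriers passed with Ctbp2 siRNA, and 236 of 12146 genes did (1.94%), a share close to that of the carriers. This was Slc25a22, a glutamate carrier. It was at 34.4, 30.6 and 33.6 TPM in control LPS libraries and 25.5, 23.9 and 27.5 TPM with Ctbp2 siRNA, so the groups did not overlap. The log2 difference was −0.35 ± 0.077 (limma adjusted p = 0.0294), and −0.28 in the authors' deposited table (adjusted p = 0.0366). The call did not hold after median-of-ratios scaling (−0.28, adjusted p = 0.0775) or when 4 of the 6 libraries were left out one at a time (adjusted p = 0.0793 to 0.105): those numbered 1 and 4 of control siRNA and 1 and 3 of Ctbp2 siRNA in LPS. With Ctbp1 siRNA in LPS the same gene was at 27.6, 28.7 and 30.2 TPM (−0.18, adjusted p = 0.619). Genes that passed split into 63 higher and 173 lower, or 143 and 75 after scaling.

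No carrier passed the test of whether the siRNA effect differs between LPS and vehicle. For Slc25a5 with Ctbp1 siRNA, whose values picked the family, the difference of 0.02 is a description without a test. For Ctbp1 siRNA 0 of 12146 genes passed (0%), with 762 (6.27%) at an unadjusted p under 0.05, and for Ctbp2 siRNA 4 did (0.0329%). For Ctbp2 siRNA the estimates of the 35 carriers ran from −0.37 to 0.42, with a median of −0.06, and −0.02 for all genes. Slc25a33 was the highest (0.42, adjusted p = 0.481), and Slc25a37 had 0.31 (adjusted p = 0.515).

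LPS was the treatment under which most carriers moved. In control BMDMs 5 of 35 carriers rose (18.6% of 12146 genes did) and 25 fell (53.6% of genes), and 5 did not pass. The median log2 difference was −0.42 for the carriers and −0.29 for all genes. TPM is a share of a fixed total, and with median-of-ratios scaling the median of all genes moved up by 0.30, 0.27 and 0.33 in the control, Ctbp1 and Ctbp2 siRNA arms. After that scaling 11 carriers were higher and 14 lower, and all genes split into 4207 higher and 3830 lower in place of 2258 and 6514. The LPS differences below are on the TPM scale, and most are also given relative to the median of all genes, which is −0.29 in the control arm. The other arms use their own vehicle and LPS libraries. With Ctbp1 siRNA 5 carriers rose and 23 fell (19.4% and 51.1% of genes), or 10 and 11 after scaling. Genes split there into 2355 and 6205, or 4113 and 3774 after scaling. With Ctbp2 siRNA 5 rose and 27 fell (18.6% and 55.3% of genes), or 11 and 13 after scaling, and genes into 2261 and 6716, or 4263 and 3960. In all 3 arms 5 carriers rose and 23 fell, compared with 16.1% and 46.1% of all genes. After scaling 10 were higher and 9 lower in all 3 arms.

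The 5 carriers that rose in all 3 arms have different cargoes, and they also rose after scaling. Slc25a10, the dicarboxylate carrier that exchanges malate and succinate for phosphate, was at 41.4, 36.5 and 41.3 TPM in vehicle and 80.8, 75.8 and 93.4 TPM with LPS. Its log2 difference was 1.05 ± 0.077 (limma adjusted p = 3.72e-09), or 1.33 relative to all genes. With Ctbp1 siRNA it was 1.06 and with Ctbp2 siRNA 0.93. Every LPS library lay above every vehicle library.

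Slc25a33, a pyrimidine nucleotide carrier, was at 2.48, 2.50 and 2.88 TPM in vehicle and 6.66, 5.99 and 6.15 TPM with LPS. Its difference was 1.00 ± 0.107 (adjusted p = 3.52e-07), or 1.29 relative to all genes, and 1.05 and 1.43 in the Ctbp1 and Ctbp2 siRNA arms. Slc25a36, a carrier of the same kind of cargo, went the other way. It was at 42.0, 46.0 and 41.6 TPM in vehicle and 19.5, 22.5 and 26.7 TPM with LPS (−0.90 ± 0.092, adjusted p = 2.11e-07, −0.61 relative to all genes). In the Ctbp1 and Ctbp2 siRNA arms it was −0.64 and −0.53, and after scaling it passed in the Ctbp1 arm and not in the Ctbp2 arm (adjusted p = 0.0754).

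The ATP-Mg/phosphate carriers also split. Slc25a25 was at 14.8, 12.5 and 13.2 TPM in vehicle and 27.6, 26.0 and 26.1 TPM with LPS, a rise of 0.93 ± 0.069 (adjusted p = 3.82e-09, 1.22 relative to all genes). Slc25a24 was at 56.2, 60.9 and 62.2 TPM in vehicle and 27.6, 28.8 and 33.3 TPM with LPS, a fall of −0.98 ± 0.063 (adjusted p = 7.38e-10, −0.69 relative to all genes). The levels of these paralogs came close, since with LPS both lay between 26.0 and 33.3 TPM. The mean of Slc25a24 stayed the higher, at 29.9 TPM against 26.6 TPM. Slc25a23, the lowest of them, averaged 7.45 ± 0.701 TPM in vehicle and 4.18 ± 0.752 TPM with LPS (−0.71, adjusted p = 3.85e-04, −0.43 relative to all genes). The 3 paralogs kept these directions in all 3 arms and after scaling.

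The iron carriers, called mitoferrins, moved apart as well. Slc25a37 was at 28.9, 30.8 and 29.4 TPM in vehicle and 52.3, 51.5 and 43.0 TPM with LPS (0.70 ± 0.084, adjusted p = 1.49e-06, 0.98 relative to all genes). In the Ctbp1 and Ctbp2 siRNA arms the rise was 0.67 and 1.01. Slc25a28 was at 32.5, 28.3 and 30.4 TPM in vehicle and 17.9, 18.4 and 22.9 TPM with LPS (−0.60 ± 0.081, adjusted p = 5.02e-06, −0.32 relative to all genes). It fell in all 3 arms, also after scaling. Among cofactor carriers Slc25a17, which resides in the peroxisome membrane, rose from 31.9, 30.0 and 32.6 TPM to 61.2, 53.8 and 51.3 TPM (0.79 ± 0.059, adjusted p = 4.52e-09, 1.08 relative to all genes). In the control arm the other 5 cofactor carriers fell on the TPM scale, where 53.6% of all genes did. After scaling 3 of them, Slc25a16 and Slc25a32 included, were lower, against 31.5% of all genes. In the Ctbp1 and Ctbp2 siRNA arms 4 and 5 fell (51.1% and 55.3% of genes), and 0 and 2 after scaling (31.1% and 32.6% of genes). Slc25a51, the NAD carrier, averaged 41.7 ± 1.19 TPM in vehicle and 33.0 ± 4.69 TPM with LPS (−0.34, adjusted p = 0.00314), which is −0.05 relative to all genes. Slc25a26, which brings in S-adenosylmethionine, averaged 6.42 ± 0.935 and 4.39 ± 1.04 TPM with overlap, and its call was lost without control LPS library 3 (adjusted p = 0.0575). Slc25a32, the folate and FAD carrier, had 8.16 TPM in vehicle library 1 and 12.8 and 13.0 TPM in the others, against 6.24 to 7.47 TPM with LPS (−0.62, adjusted p = 4.23e-04, −0.33 relative to all genes). In both siRNA arms its call was lost without 1 of 2 libraries (adjusted p up to 0.0706 and 0.072), those numbered 1 of Ctbp1 siRNA and 4 of Ctbp2 siRNA in vehicle and in LPS.

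**Figure D3:**
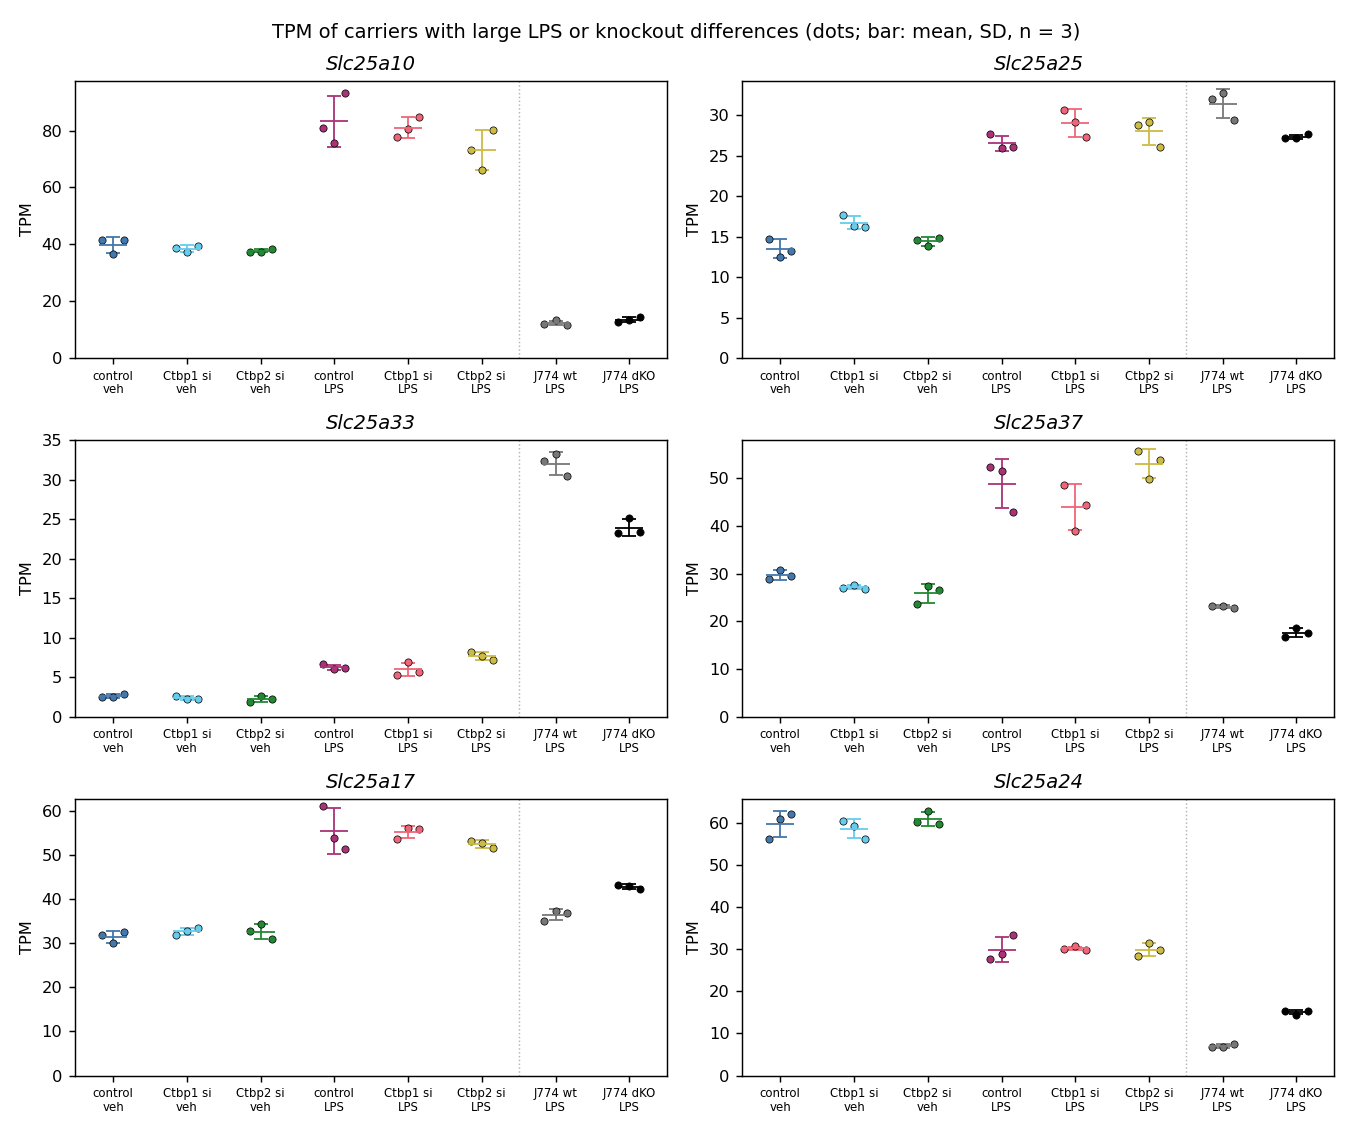
TPM of 6 carriers in each of 24 libraries by group (dots, with mean and SD, n = 3; abbreviations as for the abundant carriers); the dotted line separates the 2 tables. Slc25a10, Slc25a25, Slc25a33, Slc25a37 and Slc25a17 are higher and Slc25a24 is lower with LPS in every arm of BMDMs, and these directions hold after scaling.

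The 250 bases before the RefSeq start are printed for the carriers that rose with LPS and have a window, on GRCm38.p6, 5′ to 3′ along the gene. They are chr15:81360766-81361015 (minus strand) for Slc25a17, chr4:149774268-149774517 (minus) for Slc25a33, chr11:120491587-120491836 (plus) for Slc25a10 and chr2:32424067-32424316 (minus) for the start of Slc25a25 whose window holds a CRE match. Capitals mark matches on either strand. The motifs are the GC box (GGGCGG) and the CCAAT box, both named above, an NF-kB-like motif spelled GGGNNTTCC and the cyclic AMP response element (CRE) spelled TGACGTCA.
Slc25a17: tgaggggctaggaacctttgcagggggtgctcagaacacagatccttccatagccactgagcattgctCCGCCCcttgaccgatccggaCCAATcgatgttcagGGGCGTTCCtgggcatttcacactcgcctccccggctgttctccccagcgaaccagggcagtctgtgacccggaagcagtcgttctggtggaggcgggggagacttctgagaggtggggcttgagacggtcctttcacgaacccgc
Slc25a33: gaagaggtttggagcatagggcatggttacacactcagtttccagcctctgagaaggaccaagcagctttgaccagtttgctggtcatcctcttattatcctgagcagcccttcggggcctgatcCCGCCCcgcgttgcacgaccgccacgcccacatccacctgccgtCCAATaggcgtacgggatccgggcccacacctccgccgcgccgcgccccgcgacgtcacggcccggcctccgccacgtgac
Slc25a10: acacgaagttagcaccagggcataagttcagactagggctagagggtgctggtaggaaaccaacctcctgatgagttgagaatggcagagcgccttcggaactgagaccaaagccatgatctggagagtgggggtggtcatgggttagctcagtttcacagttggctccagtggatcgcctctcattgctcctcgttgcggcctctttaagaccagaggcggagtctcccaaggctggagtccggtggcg
Slc25a25: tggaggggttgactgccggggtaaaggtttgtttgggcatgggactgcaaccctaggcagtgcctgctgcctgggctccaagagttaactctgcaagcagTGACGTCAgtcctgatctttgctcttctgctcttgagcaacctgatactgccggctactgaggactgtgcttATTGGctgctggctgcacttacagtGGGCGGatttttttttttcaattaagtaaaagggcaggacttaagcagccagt
The NF-kB-like letters occur in the window of 1 carrier, Slc25a17, and in 4.98% of all windows. The CRE letters occur in windows of Slc25a25 and Slc25a36, of which the first rose and the other fell with LPS, and in 1.55% of all windows. Slc25a25 has other windows, not printed, that hold no CRE match, and the printed one was picked for it. The window of Slc25a10 holds none of the motifs searched, and these letters show no binding.

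Of the carriers that fell, Slc25a45 had the largest difference. It was at 60.7, 57.4 and 58.9 TPM in vehicle and 22.3, 24.2 and 28.8 TPM with LPS (−1.21 ± 0.074, adjusted p = 3.21e-10, −0.92 relative to all genes). In the other arms it was −1.14 and −1.13. Slc25a40 was at 7.93, 7.59 and 8.58 TPM and then 2.78, 3.79 and 3.42 TPM (−1.07 ± 0.109, adjusted p = 2.11e-07, −0.78 relative to all genes), whereas Slc25a39, the more abundant glutathione carrier, averaged 129 ± 5.97 and 96.4 ± 9.38 TPM (−0.42, or −0.14 relative to all genes), which did not pass after scaling (adjusted p = 0.226).

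Of 6 amino acid carriers 3 fell and 3 did not pass in the control arm, where 53.6% of all genes fell. After scaling 3 were lower and 3 higher, against 31.5% and 34.6% of all genes. Slc25a13, the aspartate/glutamate carrier citrin, was at 27.3, 29.6 and 26.1 TPM in vehicle and 13.0, 12.3 and 15.8 TPM with LPS (−0.97 ± 0.082, adjusted p = 2.01e-08, −0.68 relative to all genes). Its paralog Slc25a12, called aralar, was at 32.2, 38.7 and 34.2 TPM and then 34.4, 31.5 and 36.0 TPM, which overlap (−0.04, adjusted p = 0.667). Relative to all genes Slc25a12 was at 0.24, and it was higher after scaling (adjusted p = 0.00404). Slc25a38, a glycine carrier needed for haem synthesis, was at 19.7, 20.1 and 18.8 TPM and then 9.66, 9.29 and 10.8 TPM (−0.91 ± 0.090, adjusted p = 1.47e-07, −0.62 relative to all genes). Slc25a15, the ornithine carrier, fell from 4.01 ± 0.413 to 2.35 ± 0.485 TPM (−0.59, adjusted p = 1.78e-04, −0.30 relative to all genes). Slc25a44 and Slc25a22 lay near 0 in TPM, at −0.02 and 0.06, and were 0.29 and 0.38 higher after scaling (adjusted p = 4.96e-04 and 3.23e-04).

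Ucp2, Slc25a30 and Slc25a14, of the uncoupling protein branch, each fell in all 3 arms on the TPM scale, where 51.1% to 55.3% of all genes fell. After scaling 2 of the 3 did, where 31.1% to 32.6% of all genes were lower. Ucp2 was at 1137, 1144 and 1102 TPM in vehicle and 742, 694 and 752 TPM with LPS (−0.63 ± 0.040, adjusted p = 5.82e-10, −0.34 relative to all genes). Slc25a30 was at 21.4, 22.2 and 22.5 TPM and then 11.2, 11.3 and 11.6 TPM (−0.90 ± 0.062, adjusted p = 1.69e-09, −0.61 relative to all genes). Both also fell after scaling in each arm, and Slc25a14 did not (adjusted p = 0.0855 to 0.291). Slc25a14, at 5.54, 3.50 and 4.04 TPM in vehicle and 3.04, 3.19 and 1.97 TPM with LPS, also lost its control arm call without vehicle library 1 or LPS library 4 (adjusted p up to 0.145), and its Ctbp1 arm call without vehicle library 1 or 3 or LPS library 3 (adjusted p up to 0.121).

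For the most abundant ATP-related carriers the direction depended on the scale. Slc25a5 was at 348, 346 and 328 TPM in vehicle and 287, 269 and 281 TPM with LPS, a TPM fall of −0.29 ± 0.048 (adjusted p = 5.38e-05) that is −0.0001 relative to all genes and 0.04 after scaling (adjusted p = 0.537). In the Ctbp1 and Ctbp2 siRNA arms it was −0.27 and −0.31 in TPM, and 0.03 and 0.05 after scaling, where it did not pass. Slc25a3 had the same pattern in the control arm, −0.29 in TPM (adjusted p = 2.81e-06) and 0.04 after scaling (adjusted p = 0.379). Slc25a4 fell in TPM by 0.15 (adjusted p = 0.00223), but was 0.18 higher after scaling (adjusted p = 8.47e-04), and Slc25a1, at −0.15 in TPM, was 0.17 higher (adjusted p = 0.0118). The TPM call of Slc25a1 was lost without vehicle library 3 (adjusted p = 0.0798). Slc25a11 and Slc25a20 were at −0.24 and −0.28 in TPM and at 0.09 and 0.03 after scaling, where neither passed (adjusted p = 0.0539 and 0.703). Slc25a46, an outer membrane protein that shapes mitochondria, was at 24.0, 24.3 and 26.6 TPM in vehicle and 24.4, 24.3 and 25.8 TPM with LPS, a difference of −0.01 in TPM and 0.28 relative to all genes. The family's total was 3021 ± 21.3 TPM in vehicle and 2324 ± 82.7 TPM with LPS, of which Ucp2 alone accounted for 1128 ± 22.4 and 729 ± 31.0 TPM. Among marker genes Mertk moved with LPS, from a mean of 26.7 to 4.89 TPM, as did Pdgfrb, from 0.066 to 6.25 TPM in control arms, and their part in these results was not tested.

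**Figure D4:**
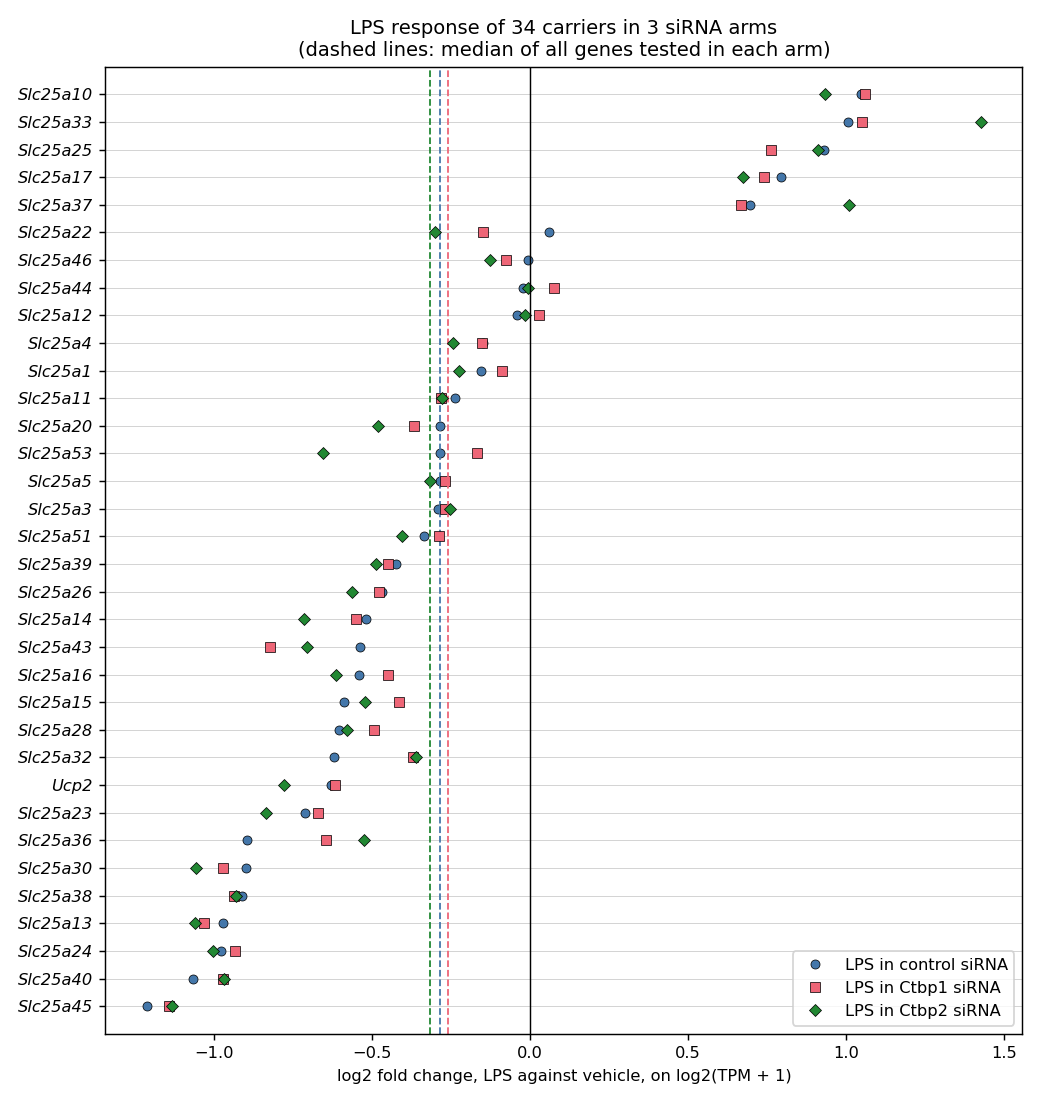
Log2 fold change with LPS of 34 of the 35 carriers in the control, Ctbp1 and Ctbp2 siRNA arms on the TPM scale; dashed lines mark the median of all genes in each arm (−0.29, −0.26 and −0.32). 5 carriers lie far to the right in every arm. Slc25a5, Slc25a3, Slc25a4 and Slc25a1 lie below 0 in the control arm and are above 0 there after scaling.

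In J774.1 cells under LPS the double knockout differed from wildtype in 21 of 35 carriers. 13 were higher (23.0% of 11818 genes were) and 8 lower (13.2% of genes), and 14 did not pass. The median difference was 0.09 for carriers and 0.05 for all genes. After median-of-ratios scaling 12 carriers were higher and 9 lower, and all genes split into 2144 higher and 2295 lower in place of 2713 and 1555. The authors' deposited table has 11 carriers higher and 9 lower, 19 of them called here with the same sign. The summed macrophage markers were at 2392 to 2650 TPM in knockout and 3061 to 3124 TPM in wildtype libraries, and their part in these results was not tested.

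Slc25a5 was lower in the double knockout too, in a contrast and cells the rule did not use. It was at 1206, 1205 and 1240 TPM in wildtype and 1055, 1070 and 1071 TPM in knockout libraries, without overlap. The difference was −0.19 ± 0.022 (limma adjusted p = 3.68e-04), or 87.5% of the wildtype mean. Slc25a4 was at 138, 137 and 138 TPM in wildtype and 151, 149 and 147 TPM in knockout libraries (0.11 ± 0.027, adjusted p = 0.0139), which did not pass after scaling (0.05, adjusted p = 0.20). Slc25a5 fell from 34.3% ± 0.407 to 29.0% ± 0.204 of the family's TPM. Ucp2 was higher, at 705, 743 and 740 TPM in wildtype and 917, 897 and 921 TPM in knockout libraries (0.32 ± 0.028, adjusted p = 8.56e-05). The family's total was 3548 ± 40.3 TPM in wildtype and 3669 ± 45.9 TPM in knockout cells. Slc25a3, −0.07 in TPM (adjusted p = 0.0846), was −0.13 after scaling (adjusted p = 0.00369).

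The largest rise was in Slc25a24. It was at 6.77, 6.74 and 7.46 TPM in wildtype and 15.3, 14.4 and 15.2 TPM in knockout libraries (1.00 ± 0.068, adjusted p = 2.16e-05), that is 214% of the wildtype mean. Its paralog Slc25a25 was lower, at 32.1, 32.8 and 29.5 TPM in wildtype and 27.3, 27.2 and 27.7 TPM in knockout libraries (−0.19 ± 0.052, adjusted p = 0.0235). Slc25a23 was lower too, at 12.5, 10.8 and 11.6 TPM and then 7.87, 9.68 and 8.82 TPM (−0.37, adjusted p = 0.0154). The call of Slc25a25 was lost on leaving out any library but wildtype 3 (adjusted p up to 0.08) and with the library numbers as a block (adjusted p = 0.0528), and that of Slc25a23 without wildtype library 1 (adjusted p = 0.055).

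Of 6 amino acid carriers 3 were higher in the knockout, 1 was lower and 2 did not pass, where 23.0% of all genes were higher and 13.2% lower. Slc25a22 was at 50.7, 49.4 and 55.9 TPM in wildtype and 79.4, 101 and 83.1 TPM in knockout libraries (0.74 ± 0.093, adjusted p = 7.25e-04). Slc25a12 was at 65.0, 66.3 and 65.2 TPM and then 83.3, 99.4 and 86.5 TPM (0.44 ± 0.064, adjusted p = 0.00133), with knockout library 2 the highest for both genes. Slc25a44, a carrier of branched-chain amino acids, was at 20.9, 21.8 and 21.9 TPM and then 25.9, 26.0 and 24.5 TPM (0.23, adjusted p = 0.00828). Slc25a38 was lower, at 32.6, 34.98 and 36.0 TPM and then 20.7, 23.9 and 24.3 TPM (−0.57 ± 0.072, adjusted p = 7.04e-04).

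Of 6 cofactor carriers 2 were higher in the knockout and 0 lower, and of 3 carnitine and glutathione carriers 2 were higher and 0 lower. Of all genes 23.0% were higher and 13.2% lower. Slc25a17 was at 35.1, 37.4 and 36.9 TPM in wildtype and 43.3, 43.0 and 42.3 TPM in knockout libraries (0.23, adjusted p = 0.00453). Slc25a20, which carries acylcarnitines for fatty acid oxidation, was at 11.5, 12.1 and 11.3 TPM and then 14.8, 14.4 and 14.6 TPM (0.31, adjusted p = 0.00432). Slc25a39 was at 160, 154 and 155 TPM and then 182, 188 and 179 TPM (0.23, adjusted p = 0.0012). Slc25a17, Slc25a20 and Slc25a39 kept their calls after scaling.

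The iron carriers moved apart here too, with each in the direction opposite to its LPS response in BMDMs. Slc25a37 was at 23.3, 23.2 and 22.8 TPM in wildtype and 16.8, 18.7 and 17.5 TPM in knockout libraries (−0.37 ± 0.055, adjusted p = 0.00164). Slc25a28 was at 33.4, 30.7 and 30.9 TPM and then 40.0, 40.6 and 40.1 TPM (0.34 ± 0.047, adjusted p = 0.0011). Of the 5 carriers that rose with LPS in BMDMs, Slc25a33 was lower as well, at 32.4, 33.2 and 30.5 TPM and then 23.3, 25.1 and 23.4 TPM (−0.41 ± 0.055, adjusted p = 9.41e-04). Slc25a10 did not pass, at 11.9, 13.3 and 11.7 TPM and then 12.5, 13.5 and 14.3 TPM (0.12, adjusted p = 0.27). Whether the knockout changes an LPS response cannot be read from these groups, which all received LPS.

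The remaining calls were smaller or in low genes. Slc25a1 was at 43.2, 47.9 and 41.9 TPM in wildtype and 32.7, 37.2 and 37.8 TPM in knockout libraries (−0.30 ± 0.073, adjusted p = 0.0152), and Slc25a11 at 62.3, 61.4 and 63.3 TPM and then 70.4, 75.3 and 70.6 TPM (0.21, adjusted p = 0.00546). Slc25a43, a carrier of unassigned cargo, was at 5.23, 5.06 and 6.05 TPM and then 9.46, 8.03 and 7.75 TPM (0.55 ± 0.102, adjusted p = 0.00474). Slc25a30 was at 14.8, 14.2 and 15.3 TPM and then 12.8, 11.9 and 11.9 TPM (−0.25, adjusted p = 0.0142), a call lost without wildtype library 3 (adjusted p = 0.0552).

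**Figure D5:**
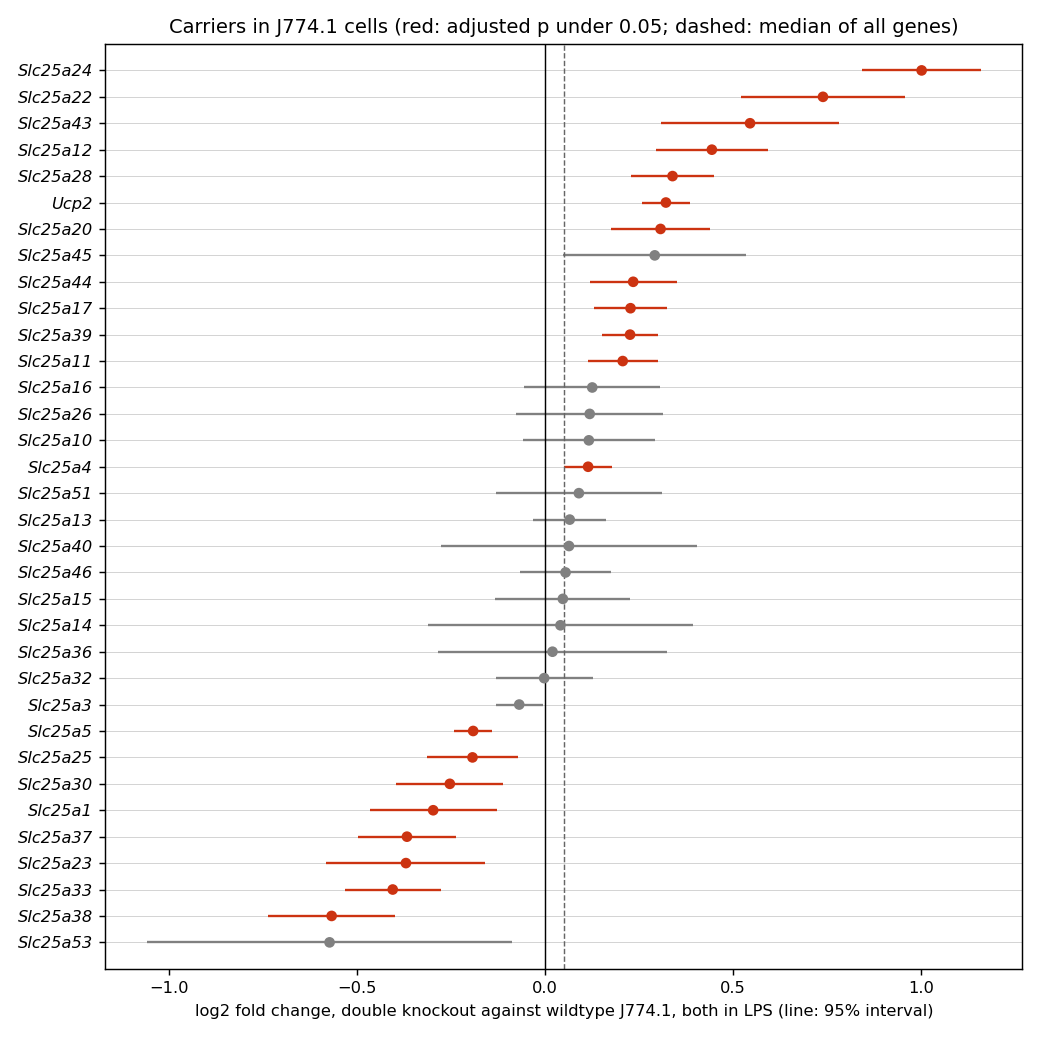
Log2 fold change of 34 of the 35 carriers in double knockout against wildtype J774.1 cells, both in LPS, with 95% intervals (lines); red marks an adjusted p under 0.05 and the dashed line the median of all genes, 0.05. Slc25a24 (1.00) and Slc25a22 (0.74) are farthest right and Slc25a38 (−0.57) is the lowest of those that passed, and of the red points Slc25a4 does not pass after scaling.

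Genes around the carriers were counted from lists. Their counts stand beside those of all genes: with LPS in control BMDMs 18.6% rose and 53.6% fell, or 34.6% and 31.5% after scaling, and in the knockout 23.0% were higher and 13.2% lower, or 18.1% and 19.4% after scaling. Carrier proteins enter the inner membrane through outer membrane receptors, small chaperones and the TIM22 complex, and 15 genes of this import route were tested. None passed with either siRNA, where at most 1.94% of all genes did. In control BMDMs 3 of 15 rose and 8 fell with LPS, near the shares of all genes, or 7 and 2 after scaling. Timm10b had the largest fall, from a mean of 111 to 65.8 TPM (−0.75, adjusted p = 2.79e-08, −0.47 relative to all genes), and Tomm70a, the receptor for carrier precursors, rose from 28.1 to 38.6 TPM (0.45, adjusted p = 7.26e-07, 0.73 relative to all genes). In the double knockout 1 was higher and 2 lower, or 0 and 3 after scaling, none by more than 0.16 in TPM. Other inner membrane transporters numbered 21, of which 2 rose and 15 fell with LPS (5 and 7 after scaling). The sodium/calcium exchanger gene Slc8b1 fell from 57.3 to 16.9 TPM (−1.72, adjusted p = 9.51e-11, −1.44 relative to all genes). In the knockout 9 of 20 were higher and 1 lower, or 6 and 3 after scaling, among them both subunits of the pyruvate carrier, Mpc1 (0.32, adjusted p = 0.00179) and Mpc2 (0.34, adjusted p = 0.0119), and Mcub, an inhibitory subunit of the calcium uniporter, lower at −0.88 (adjusted p = 4.28e-04). Of 6 outer membrane channels and carrier relatives 1 rose, Vdac3 (0.30), and 4 fell, or 4 and 0 after scaling, and 3 were higher in the knockout, or 2 after scaling, led by Tspo (0.42). Of 11 regulators of mitochondrial biogenesis 5 rose and 4 fell with LPS, or 5 and 1 after scaling, with Esrra at 0.63 (adjusted p = 2.66e-09) and Tfam, the mitochondrial DNA packaging factor, at −0.79 (adjusted p = 0.00408), which did not pass after scaling (adjusted p = 0.0733). In the knockout Gabpa was lower, and after scaling 3 regulators were. None of these genes passed with Ctbp1 or Ctbp2 siRNA, in vehicle or LPS. Of all genes 0.0576% to 1.94% passed there, so these counts are near the background.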

How the data were processed

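Polyadenylated RNA was sequenced by the submitters with a kit that does not keep strand. Per the submitters' processing notes, FastQC, Salmon 1.9.0, DESeq2 1.44.0 and R 4.4.1 were used, and the builds named are mm39, GRCm38 and GRCm39. Per the file headers, the deposited TPM values of the BMDM libraries are Salmon gene-level scaled TPM on mm39; those of J774.1 are in a separate table. The authors' deposited tables also hold each gene's normalized count as a mean (a signal pooled over samples), its log2 fold change, and raw and adjusted p-value, used here only where named. TPM sums were 999839 to 999944 in BMDM and 999503 to 999526 in J774.1 libraries, which hides depth, so no counting interval can be given. Of 54661 lines in the J774.1 table, 281 repeat an identifier and were dropped.

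Here log2(TPM + 1) was fitted with limma 3.58.1 in R 4.3.3 (lmFit and eBayes, trend and robust both on) for genes averaging 1 TPM or more, 12146 in BMDMs and 11818 in J774.1. A single fit with a coefficient for each group took all 18 BMDM libraries, so BMDM tests share 1 estimate of spread, and another took the 6 J774.1 libraries. There were 10 comparisons: LPS in each of 3 siRNA arms, each siRNA in vehicle and in LPS, both interactions and the knockout. Every adjusted p not credited to the authors is from limma, 2-sided, adjusted by Benjamini-Hochberg over all genes tested, and genes were called under 0.05. Intervals are 95% intervals of limma coefficients, SDs are over 3 libraries, and tests were tried first on simulated data. The siRNA comparisons of Ctbp1 and Ctbp2 share control libraries.

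The members and lists were chosen with earlier results of these data known. Slc25a5 was always named; members called with an siRNA, in an interaction or in the knockout, and the 10 largest called LPS differences in control cells, get values in every library; other members may be named with levels, and up to 4 called genes of the other lists. Slc25a25 and Slc25a40 with siRNA, Slc25a28, Slc25a14, Slc25a32, Tomm70a, Mpc1 and Esrra are given in more detail than that rule asks, chosen after their values were seen. The alternatives were a pseudocount of 0.1, a minimum mean of 10 TPM, no filter, median-of-ratios scaling, the replicate block, no trend and robust estimation, only the libraries compared, and each library left out. Promoter windows are those of RefSeq on GRCm38.p6, a build other than mm39, matched by symbol. The values of 1 of the 35 carriers are not reported here, though it is in the counts. Figures used matplotlib 3.10.9.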

Additional observations from a re-analysis of the deposited data

How the results depend on the processing

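Of 47 results for named genes, 42 kept direction and call after median-of-ratios scaling, 46 without a filter, and 47 with a pseudocount of 0.1. Of the 44 tested at 10 TPM or more, all 44 did, and of 24 fitted with only the libraries compared, 22 did. The 47 include Slc25a5 with Ctbp1 siRNA in vehicle and in LPS, the values that picked the family, which are no test. Scaling turned the sign of Slc25a5 with LPS to 0.04 in the control (0.0417), 0.0266 in the Ctbp1 and 0.0455 in the Ctbp2 siRNA arm; the added size factors shift every LPS value by a like amount. The 1 carrier called with Ctbp2 siRNA in LPS, Slc25a22, became 0 without a filter, after scaling and with only the libraries compared. With only those libraries the carriers called with Ctbp1 siRNA in LPS went from 1 to 0 (fewer libraries estimate the spread there). That 1 is Slc25a5, through which the family was picked, so its call there is no test. Gene counts with few calls moved most. For Ctbp1 siRNA in vehicle 13 genes became 7 without trend and robust estimation; in LPS 7 became 12 at 10 TPM and 2 with only the libraries compared. For Ctbp2 siRNA in vehicle 69 became 45 without a filter, 42 without trend and robust estimation and 22 with only the libraries compared; in LPS 236 became 132 without a filter and 4 with only the libraries compared. For the Ctbp1 interaction 0 became 2 with a pseudocount of 0.1, 1 at 10 TPM, 2 without a filter and 3 with only the libraries compared. For the Ctbp2 interaction 4 became 8 at 10 TPM, 0 without a filter, 2 after scaling and 1 with only the libraries compared. Beyond what is stated, the cause was not tested.

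With each library of the comparison left out in turn, carriers called were 29 to 31, 26 to 28 and 31 to 32 with LPS in the control, Ctbp1 and Ctbp2 siRNA arms, 19 to 21 in the knockout, 1 to 2 for Ctbp1 and 0 to 1 for Ctbp2 siRNA in LPS. The carrier counts for Ctbp1 siRNA in LPS include Slc25a5, which picked the family. Genes called were 5 to 8 for Ctbp1 and 4 to 54 for Ctbp2 siRNA in vehicle, 6 to 83 and 66 to 295 in LPS, and 0 to 4 and 0 to 13 for the interactions. The highest counts of Ctbp1 siRNA in LPS and of both interactions came without control LPS library 4. Leaving that library out also where it is not compared, chosen after seeing the data, gave 38 genes for Ctbp1 and 105 for Ctbp2 siRNA in vehicle.

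The replicate numbers share only a number: the labels do not say what they mark. Deviations from the group means correlated by −0.15 to 0.32 over 45 pairs of BMDM libraries with the same number (median 0.09, 21 over 0.1; median −0.03 over 90 other pairs) and by −0.03 to 0.16 over 3 pairs in J774.1. With the replicate block the genes called with Ctbp2 siRNA went from 69 to 155 in vehicle and from 236 to 414 in LPS, and of 47 named results 1 changed, Slc25a25 in the knockout (adjusted p = 0.0528). TPM keeps no depth, so what depth limits cannot be stated, and the widest intervals belonged to low carriers such as Slc25a14 and Slc25a53.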

Other observations

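Carriers that did not reach 1 TPM in every group still had values in some. Slc25a42, a carrier of coenzyme A, averaged 2.19 TPM in vehicle and 0.675 TPM with LPS in control BMDMs, 1.87 and 0.55 TPM with Ctbp1 siRNA, and 1.96 and 0.538 TPM with Ctbp2 siRNA. Slc25a27, which encodes a brain uncoupling protein, averaged 1.52 TPM in vehicle and 0.244 TPM with LPS in control BMDMs and was listed at 0 in J774.1. Slc25a35 averaged 2.51 TPM in vehicle and 0.997 TPM with LPS in control BMDMs. Slc25a47, described mainly from liver, averaged 6.74 ± 1.19 TPM in wildtype and 5.97 ± 0.31 TPM in double knockout J774.1 cells (SD, n = 3), and 1.03 TPM in LPS-treated control BMDMs. These levels were not tested, and those of the J774.1 and BMDM tables were normalized separately.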
